A study of Mus musculus with 58 samples.

Results

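The transcriptome of cultured mouse microglia was compared after exposure to tau fibrils and after vehicle, using the 8 libraries of this experiment among the 58 samples of the series. Primary microglia came from newborn wild-type (WT) mice and had been shaken off mixed glial layers grown from hippocampus and cortex without meninges. They were plated for a day and then given 2 µg/ml of synthetic full-length tau fibrils for 24 h (4 libraries, tau fibrils 1 to 4) or vehicle (4 libraries, vehicle 1 to 4). No transgene or deletion separated the groups, and the question was which microglial genes change when the cells meet aggregated tau. The paper measured endotoxin in its synthetic tau and describes it as negligible, and any part of endotoxin in the results was not tested here. Microglia of newborn brain raised in serum-containing medium are limited as a model of microglia in an ageing brain.

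Microglia are the resident macrophages of the brain. They sense aggregates, microbes and dying cells through Toll-like receptors, scavenger receptors and cytosolic nucleic acid sensors. Sensing leads to NF-κB activity, which turns on cytokines and its own inhibitors, and to interferon regulatory factors, which turn on type I interferon. Interferon acts back on the cell through its receptor, the kinases Jak1 and Tyk2 and the factors Stat2 and Irf9, which bind an element in the promoters of interferon-stimulated genes. Tau is the microtubule-associated protein that aggregates in Alzheimer's disease and other tauopathies, and microglia take up its fibrils.

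The 3′ mRNA-Seq libraries sample each transcript at its 3′ end, and a long gene is not counted more often for its length. Levels are given as CPM, a gene's share of the library's counts scaled to a fixed total, after TMM normalization, which scales the libraries so that most genes do not differ. The total count per library was 1672052 to 4640645, 16.3% to 22.2% of the uniquely mapped reads fell outside genes with tau fibrils and 23.3% to 29.1% with vehicle, and the mitochondrial share of counts was 3.11% to 4.11% with tau fibrils and 4.33% to 5.8% with vehicle. Gm42418, a transcript that overlaps ribosomal RNA, took 14.5% of counts with tau fibrils and 15.4% with vehicle on average. The first principal component held 58.4% of the variance and separated the groups, and the second held 9.64% and set vehicle 1 and vehicle 4 at opposite ends. Xist and the Y-linked gene Ddx3y were both present in all 8 libraries. Nothing in the labels says that the 4 libraries of a group came from separate cultures, so p-values measure the spread between these libraries, which may be technical.

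The libraries held most of the defining markers of the labelled cell type, and the markers of other brain cells summed to lower levels. The 14 microglial markers summed to 13103 to 14911 CPM with tau fibrils and 6102 to 7696 CPM with vehicle, and of the 13 tested 8 were higher with tau fibrils by the test used below and 0 were lower. Aif1, which encodes the microglial protein Iba1, was at 1212, 1433, 1398 and 1002 CPM with tau fibrils and 116, 188, 109 and 156 CPM with vehicle. P2ry12 was low in every library (4.06 to 9.92 CPM), and Siglech was at 0 in 5 of the 8 libraries and too low for the test. The 10 astrocyte markers summed to 497 to 572 CPM with tau fibrils and 898 to 996 CPM with vehicle, with 6 of 9 tested lower. Neuronal markers summed to 255 to 317 CPM with tau fibrils against 465 to 596 CPM with vehicle (7 of 9 lower), oligodendrocyte lineage markers to 437 to 488 against 678 to 799 CPM (4 of 9 lower and 1, Cnp, higher), fibroblast and mural cell markers to 198 to 209 against 449 to 644 CPM (2 of 5 lower), and endothelial markers to 63.5 to 73.1 against 113 to 133 CPM (1 of 2 lower). Border-associated macrophage markers summed to 1178 to 1382 CPM with tau fibrils and 328 to 413 CPM with vehicle (3 of 4 higher), and Ms4a7 made up most of this sum, while Clec10a was at 0. Granulocyte markers summed to at most 8.04 CPM in any library and lymphocyte markers to at most 0.534 CPM, with Mpo, Elane, Ly6g, Retnlg, Cd3d, Cd3e, Cd8a, Cd79a and Nkg7 at 0 in all 8 libraries. Gjb6 of the astrocyte list, Lum of the fibroblast list and Cldn5 of the endothelial list were at 0 as well. In such bulk libraries fewer cells of a type and less RNA per cell cannot be told apart, and the part of this shift in the results that follow was not tested.

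**Figure D1:**
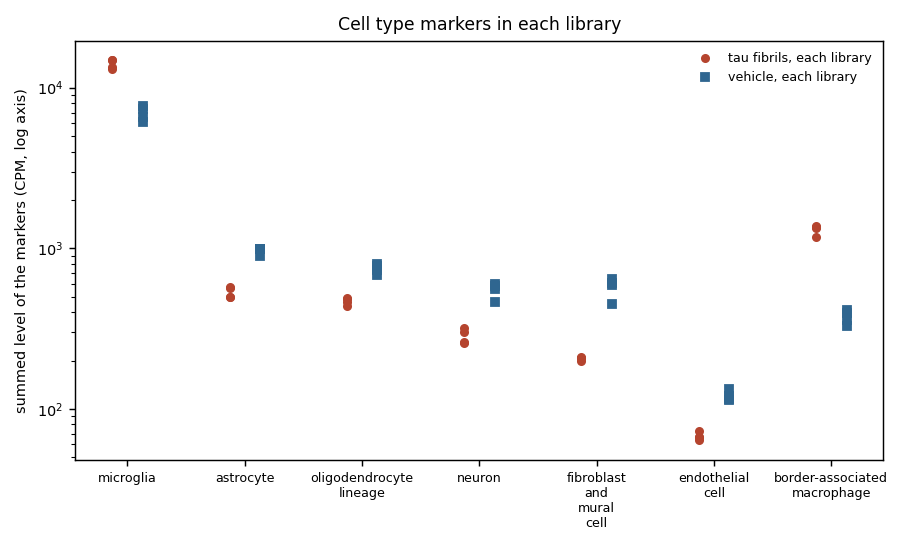
Summed level of 7 sets of cell type markers (y axis, CPM, log scale) in each library, circles for tau fibrils and squares for vehicle. The microglial sum was 13103 to 14911 CPM with tau fibrils and 6102 to 7696 CPM with vehicle, and the astrocyte sum was 497 to 572 and 898 to 996 CPM.

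Tau fibrils changed many genes, and the increases reached much further than the decreases. A gene was called at a Benjamini-Hochberg FDR under 0.05 in edgeR's quasi-likelihood test over the 10408 genes tested. Of these 1506 (14.5%) were higher and 1602 (15.4%) were lower with tau fibrils, together 29.9%, and in 28.3% of the genes tested the 2 groups did not overlap. Among the genes called higher, 116 had a fitted log2 fold change of 3 or more (113 with lower bounds for the 21 of them that had no vehicle library above 3 counts) and a further 106 had one of 2 to 3, whereas no gene fell by 3 or more, 10 fell by 2 to 3 and 573 by 1 to 2. The 21 genes with no vehicle library above 3 counts passed the count filter through the tau fibril libraries alone. So did other genes under the filter's level in every vehicle library, Mmp9, Fpr2, Cd69, Trpm2, Ifi209 and Acod1 among them. Genes under that level in every tau fibril library, such as Lsp1, passed through the vehicle libraries alone. The direction of all these genes was thereby fixed, also where they count in a list below. The median log2 fold change over all genes tested was -0.01. When library totals replaced TMM as the scale, the median of all genes moved to -0.16 and the calls split into 1057 higher and 2254 lower, so a small fold change depends on the scale. The FDR given with each gene below is adjusted over all 10408 genes. The gene lists below were chosen with earlier results of these data known, so their counts describe and do not test. Each list count is to be read beside the 14.5% higher and 15.4% lower of all genes tested.

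**Figure D2:**
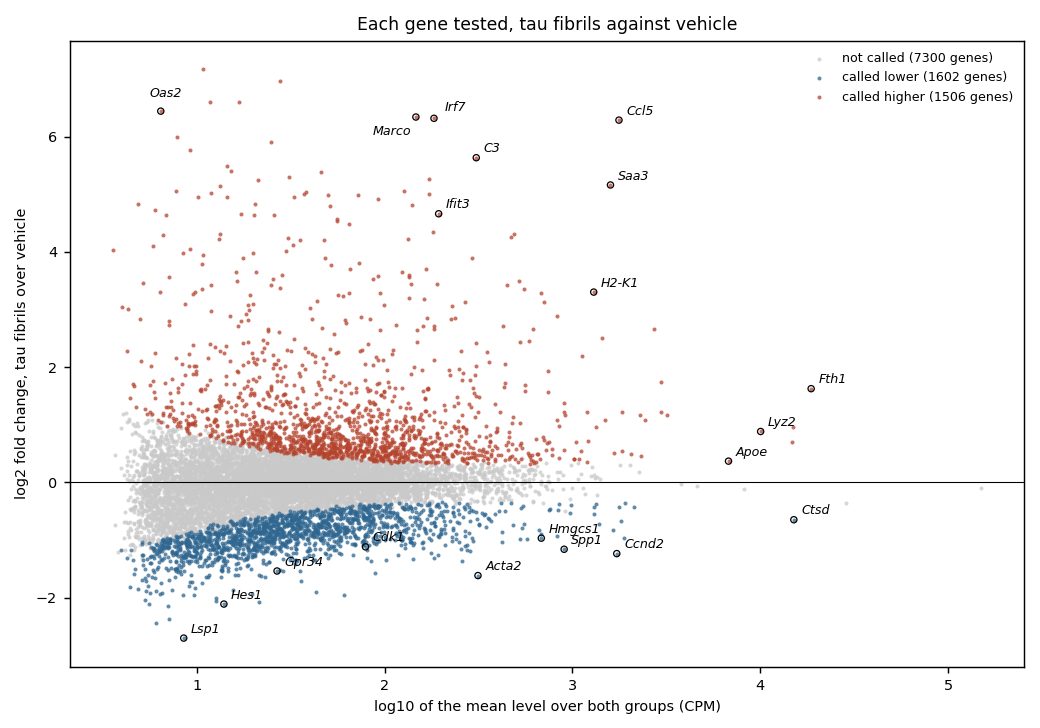
Each gene tested by its mean level over both groups (x axis, log10 CPM) and its log2 fold change, tau fibrils over vehicle (y axis), with called genes in red (1506 higher) and blue (1602 lower). The highest gene with more than 3 counts in a vehicle library was Marco at 6.34 and the lowest gene was at -2.70, and the 21 genes with no vehicle library above 3 counts are drawn at fitted values that depend on the prior count. The lowest gene, Lsp1, passed the count filter through the vehicle libraries alone.

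Genes of the interferon signalling chain rose, from receptor to transcription factor, with the largest changes in Irf7 and the brake Usp18. Of 21 members tested, 15 were called higher and 0 lower, against 14.5% and 15.4% of all genes (median log2 fold change 0.87). Irf7, the factor that amplifies type I interferon production, at chr7:141262706-141266481 on GRCm38, was at 352, 361, 418 and 315 CPM with tau fibrils and 4.66, 4.06, 4.26 and 5.45 CPM with vehicle (log2 fold change 6.32, SE 0.19, adjusted p = 2.6e-19). The lowest library with tau fibrils stood far above the highest with vehicle. Its 3′ region overlaps Phrf1 on the other strand, and reads of the pair cannot be told apart where strand was not used in counting. Stat2 and Irf9, which carry the signal of the interferon receptor to promoters, had log2 fold changes of 3.29 and 1.71. Usp18, which shuts off signalling at the interferon receptor, rose from 2.55 ± 1.39 to 97.1 ± 10.1 CPM (mean ± SD, n = 4, adjusted p = 4.6e-15). Both chains of the type I receptor rose less (log2 fold changes of 0.78 for Ifnar1 and 0.77 for Ifnar2), as did both chains of the interferon-γ receptor (1.03 for Ifngr1 and 1.16 for Ifngr2) and the kinases Jak1 (0.61) and Tyk2 (1.31). Irf1, Irf2, Irf5 and Stat6 were also called higher, while Jak2, Stat3, Stat5a, Irf3, Irf8 and Socs3 were not called. Irf1, an early factor of the pathway, was at 116, 107, 98.5 and 79 CPM with tau fibrils and 26.8, 38.4, 26 and 26.2 CPM with vehicle. Ifnb1, the gene of interferon β itself, had 0 counts in all 8 libraries, which allows up to 3 counts in each.

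**Figure D3:**
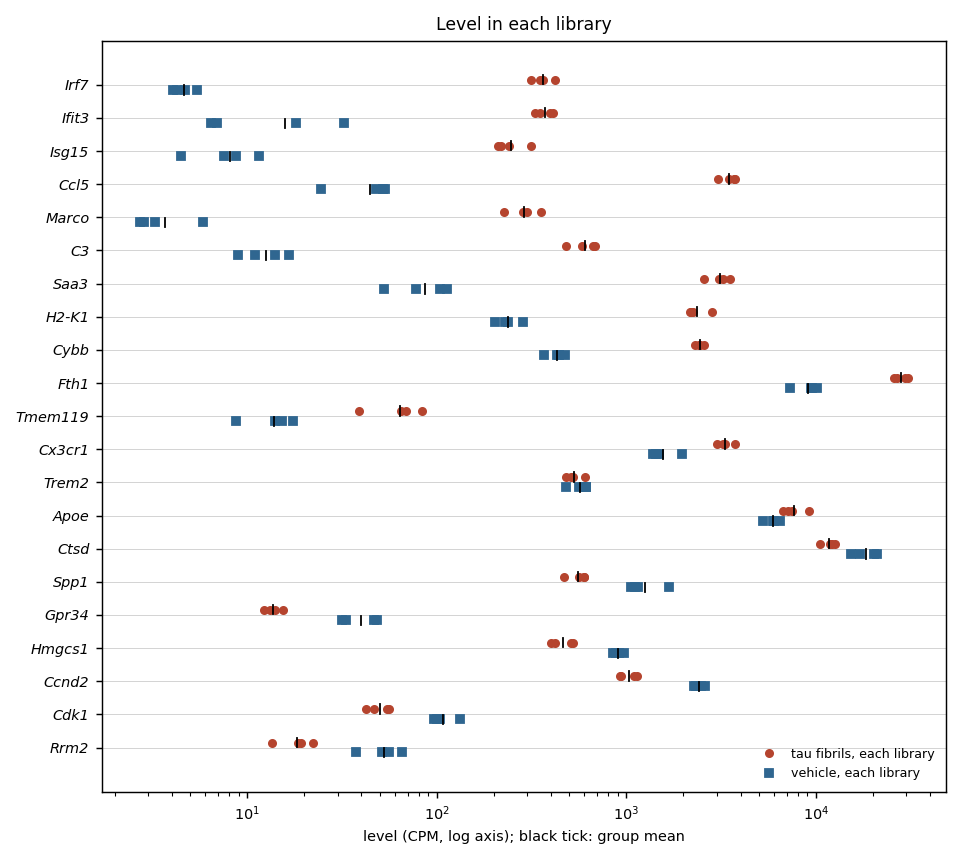
Level of 21 genes in each library (x axis, CPM, log scale), circles for tau fibrils, squares for vehicle and a black tick for each group mean. From Irf7 down to Cx3cr1 the libraries with tau fibrils lie above those with vehicle, from Ctsd to Rrm2 they lie below, and the groups overlap for Trem2.

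All 23 antiviral effectors tested were called higher, against 14.5% of all genes, with a median log2 fold change of 4.54 (3.81 with the 5 genes limited to 3 counts or fewer in each vehicle library set at their lower bound). Their groups did not overlap for any of the 23. The 5 genes at the bound passed the count filter through the tau fibril libraries alone, which fixed their direction. Isg15, a ubiquitin-like protein that is attached to viral and host proteins, was at 217, 211, 314 and 240.3 CPM with tau fibrils and 8.75, 4.47, 7.57 and 11.5 CPM with vehicle (log2 fold change 5.06, SE 0.22, adjusted p = 1.7e-16). Ifit3, which binds foreign RNA together with Ifit1, was at 350.2, 410.4, 397 and 331 CPM with tau fibrils and 6.41, 6.91, 18 and 32.2 CPM with vehicle (log2 fold change 4.66, SE 0.27, adjusted p = 1.1e-13). For Rsad2, which makes a chain-terminating nucleotide, the level was 345 ± 25.6 CPM in tau-stimulated cells and 18.2 ± 18.1 CPM in vehicle-treated cells, and for the membrane protein Ifitm3, which blocks viral fusion, 889 ± 30.2 CPM in tau-stimulated cells and 46.9 ± 4.82 CPM in vehicle-treated cells (mean ± SD, n = 4). Oas2, an enzyme that answers double-stranded RNA, was at least 9.47-fold higher and Mx1, a GTPase that traps viral particles, at least 13.4-fold higher, both against the limit of 3 counts in each vehicle library. The RNA editing enzyme Adar changed least (log2 fold change 1.60). Oas1a, Oas1g and Ifit1bl1 had too few counts to be tested.

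Many promoters of interferon-stimulated genes carry the interferon-stimulated response element, searched here as the letters GAAANNGAAA on both strands. The stretches before the RefSeq starts (GRCm38.p6) of Isg15 and Ifit1 are shown because both held several matches, printed 5′ to 3′ in the direction of the gene with the matching letters in capitals:
Isg15 promoter, chr4:156200819-156200918 (- strand): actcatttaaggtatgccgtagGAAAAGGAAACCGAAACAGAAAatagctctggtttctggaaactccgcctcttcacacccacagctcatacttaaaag
Ifit1 promoter, chr19:34640769-34640888 (+ strand): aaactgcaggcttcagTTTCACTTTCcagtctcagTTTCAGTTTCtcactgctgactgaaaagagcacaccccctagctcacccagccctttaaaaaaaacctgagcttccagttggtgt
In Isg15 the 3 matches overlap into 1 run of capitals, and in Ifit1 the 2 matches are on the other strand.

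The interferon-induced GTPases, which attack the vacuoles of intracellular pathogens, and the Schlafen, PARP and TRIM genes rose together with them. All 10 GTPases tested were called higher (median log2 fold change 3.48, or 3.26 with 1 gene at its lower bound), with values from 2.05 for Irgm2 to 4.65 for Ifi47, and another 8 had too few counts. The gene at its bound passed the count filter through the tau fibril libraries alone. Igtp, known as Irgm3, was at 64.3, 73.1, 78.6 and 96.6 CPM with tau fibrils and 12.2, 8.33, 8.51 and 6.55 CPM with vehicle, with no overlap of the groups. Gbp9 was at least 9.25-fold higher, and its exons overlap those of Gbp8 and Gbp4, so that its reads may be shared. All 18 genes tested of the Schlafen, PARP and TRIM list were higher (median log2 fold change 2.45). Slfn2, which keeps immune cells quiescent, was at 479 ± 85 CPM in tau-stimulated cells and 54.6 ± 2.75 CPM in vehicle-treated cells and Slfn8 at 121 ± 6.02 CPM in tau-stimulated cells and 9.67 ± 2.97 CPM in vehicle-treated cells (mean ± SD, n = 4). Parp14, a mono-ADP-ribosyltransferase, and its partner gene pair Parp9 and Dtx3l had log2 fold changes of 3.21 for Parp14, 2.58 for Parp9 and 2.74 for Dtx3l. Among TRIM genes, which encode ubiquitin ligases, Trim30a had the highest level (397 ± 41.6 CPM in tau-stimulated cells and 55.6 ± 2.89 CPM in vehicle-treated cells). These families hold near-identical neighbours, and reads of close copies may have been counted on a relative or lost.

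The response element letters lay close to the start of several of these genes, of which 5 are printed with the matches in capitals:
Irgm1 promoter, chr11:48871421-48871500 (- strand): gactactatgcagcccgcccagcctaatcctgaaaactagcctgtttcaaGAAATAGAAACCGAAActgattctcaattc
Igtp promoter, chr11:58199476-58199555 (+ strand): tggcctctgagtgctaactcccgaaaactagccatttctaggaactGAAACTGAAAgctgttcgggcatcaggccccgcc
Gbp3 promoter, chr3:142559964-142560043 (+ strand): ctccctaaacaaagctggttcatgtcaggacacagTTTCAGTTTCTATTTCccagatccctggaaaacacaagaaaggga
Slfn9 promoter, chr11:82991831-82991910 (- strand): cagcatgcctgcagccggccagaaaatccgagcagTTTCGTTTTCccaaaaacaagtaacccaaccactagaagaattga
Trim30a promoter, chr7:104465194-104465273 (- strand): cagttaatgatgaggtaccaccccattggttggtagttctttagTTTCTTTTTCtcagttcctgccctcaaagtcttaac
The first match began 30 bases before the start in Irgm1, 34 in Igtp, 45 in Gbp3, 45 in Slfn9 and 36 in Trim30a.

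Sensors of nucleic acid in the cytosol rose with tau fibrils, 15 of 17 tested and none lower, at a median log2 fold change of 3.65 (3.29 with the 3 genes of at most 3 counts in each vehicle library at their lower bound). The 3 genes at the bound passed the count filter through the tau fibril libraries alone. The RNA sensors Ddx58 (RIG-I), Ifih1 (MDA5) and Dhx58 (LGP2) had log2 fold changes of 3.23 for Ddx58, 3.25 for Ifih1 and 4.13 for Dhx58. Cgas, the DNA sensor that makes cyclic GMP-AMP, was at 21, 32, 29 and 41.1 CPM with tau fibrils and 13.4, 10.6, 9.46 and 15.8 CPM with vehicle, and its receptor Tmem173 (STING) at 50.6 ± 7.64 CPM in tau-stimulated cells and 18 ± 6.3 CPM in vehicle-treated cells (adjusted p = 1.3e-04 and 8.6e-06). Zbp1, a sensor of Z-form nucleic acid that can start necroptosis, was at 64.2 ± 14.5 CPM in tau-stimulated cells and 2.12 ± 0.52 CPM in vehicle-treated cells. Mavs, the mitochondrial adaptor of the RNA sensors, was at 13.3 ± 5.43 CPM in tau-stimulated cells and 13.1 ± 3.14 CPM in vehicle-treated cells and was not called (adjusted p = 0.91), nor was the helicase Dhx9. Aim2, which builds a DNA inflammasome, rose least among those called (log2 fold change 0.95).

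Genes of the DNA-binding Ifi200 family sit side by side and rose together. On chromosome 1, chr1:173350879-174031810, 11 neighbouring genes tested were all called higher, from Aim2 (0.95) to Ifi206, which was at least 24.6-fold higher, with Ifi213, Ifi209, Ifi208, Ifi207, Ifi204, Mndal, Ifi211, Ifi203 and Ifi205 between or beside them. Ifi204 was at 230.1, 163, 219.5 and 302 CPM with tau fibrils and 16.3, 19.5, 18.9 and 16.9 CPM with vehicle and Ifi209 at 98.5, 75.3, 101 and 83.3 CPM with tau fibrils and 0.583, 1.83, 4.26 and 1.64 CPM with vehicle. No library with tau fibrils overlapped a vehicle library for either. The promoters of 5 of these genes are shown because they held the same response element:
Ifi206 promoter, chr1:173491319-173491398 (- strand): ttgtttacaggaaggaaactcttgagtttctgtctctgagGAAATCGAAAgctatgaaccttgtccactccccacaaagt
Ifi213 promoter, chr1:173599273-173599352 (- strand): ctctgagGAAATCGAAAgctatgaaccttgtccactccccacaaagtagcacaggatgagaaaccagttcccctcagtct
Ifi208 promoter, chr1:173673585-173673664 (+ strand): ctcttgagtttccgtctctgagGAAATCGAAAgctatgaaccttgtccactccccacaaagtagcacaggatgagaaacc
Mndal promoter, chr1:173880188-173880267 (- strand): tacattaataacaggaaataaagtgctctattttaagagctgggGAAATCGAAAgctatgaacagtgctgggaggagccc
Ifi203 promoter, chr1:173942493-173942572 (- strand): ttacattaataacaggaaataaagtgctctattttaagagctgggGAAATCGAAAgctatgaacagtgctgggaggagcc
The 5 stretches shared a run of 20 bases, gGAAATCGAAAgctatgaac. The same close similarity makes reads of these genes uncertain where they map to more than one copy.

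Across all promoters, response element letters were more frequent where the increase was larger. Promoters were matched for 8228 of the 10137 protein-coding genes tested (81.2%), and sets of which fewer than 80% matched are not described. In the 250 bases before the start, GAAANNGAAA occurred in 5.72% of the promoters of genes called higher, in 2.10% of those of genes not called and in 2.98% of all promoters. Among genes called higher it occurred in 2.77% of promoters where the log2 fold change was under 1, in 3.69% from 1 to 2 and in 13.1% from 2 to 3. By list, the share was 77.8% for the GTPases (7 of 9 promoters), 50% for the Schlafen, PARP and TRIM genes (9 of 18) and 33.3% for the antiviral effectors (8 of 24). The gamma-activated site TTCNNNGAA occurred in 6.42% of the promoters of genes called higher, in 5.65% of those of genes not called and in 7.02% of all promoters. Its share was 12.1% among genes higher by a log2 fold change of 2 to 3, 44.4% for the GTPases (4 of 9 promoters) and 5.56% for the Schlafen, PARP and TRIM genes (1 of 18). Its letters overlapped the response element in 8 of 273 tested promoters that held the latter. These are matches of letters in a fixed window and carry no test.

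Other neighbouring genes moved together as well. In all, 82 genes lay in 14 runs of at least 5 adjacent tested genes called in the same direction, 12 runs higher and 2 lower. Of all 10408 genes tested 29.9% were called, and how many such runs arise without any link between neighbours was not tested. The second longest was the Trim cluster on chromosome 7, chr7:102557921-104507849, with Trim21, Trim34a, Trim5, Trim12a, Trim12c, Trim30c, Trim30a and Trim30d higher by log2 fold changes of 1.74 to 5.07. Runs of 6 held the Schlafen genes (chr11:82951349-83226604), the C-type lectin genes Clec4a1, Clec4a3, Clec4a2, Clec4n, Clec4d and Clec4e (chr6:122921848-123289870, 1.48 to 5.26) and a stretch of chromosome 1 with Ikbke (chr1:131053700-131715439). A lower run of 5 on the X chromosome held Arxes2, Arxes1, Bex2, Tceal8 and Tceal5 (-2.10 to -0.73).

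NF-κB is a dimer of Rel proteins that is held in the cytoplasm by inhibitors until the IκB kinases release it. Of 27 components and brakes tested, 15 were called higher and 0 lower, against 14.5% and 15.4% of all genes (median log2 fold change 0.81). Among the subunits, Nfkb2 was at 51.7, 43.7, 57.6 and 48.1 CPM with tau fibrils and 12.8, 10.4, 8.99 and 8.73 CPM with vehicle (log2 fold change 2.30, SE 0.21, adjusted p = 1.6e-09). The groups did not overlap. Relb, its partner in the non-canonical pathway, rose by a log2 fold change of 1.62, Nfkb1 by 1.03 and Rel by 0.86, whereas Rela was at 121 ± 13.4 CPM in tau-stimulated cells and 106 ± 7.18 CPM in vehicle-treated cells and was not called (adjusted p = 0.3). Of the kinases, Ikbke and Tbk1, which also activate interferon regulatory factors, had log2 fold changes of 2.44 and 0.81, Ikbkb (IKKβ) was at 75.1, 78, 65.1 and 69.4 CPM with tau fibrils and 46.6, 40.9, 43 and 58.4 CPM with vehicle (adjusted p = 0.0044), and Chuk (IKKα), Ikbkg (NEMO), Map3k7 and Map3k14 were not called. Genes of the IκB family rose too, with log2 fold changes of 2.82 for Bcl3, 1.82 for Nfkbiz and 0.80 for Nfkbib. The brakes Tnfaip3 and Tnip1 had 2.22 and 1.05. Bcl3, a nuclear IκB protein, was at 26.4, 27.1, 31.8 and 46.5 CPM with tau fibrils and 6.41, 4.67, 5.2 and 2.18 CPM with vehicle. Birc3 and Traf2, which sit at the TNF receptor, had values of 1.94 and 1.08, and Nfkbie, Cyld, Traf3, Traf5, Traf6, Birc2 and Ripk1 were not called.

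A κB site was searched as GGGANNTTCC. It occurred in 16.1% of the promoters of these components (5 of 31), in 1.89% of those of genes called higher and in 1.21% of all promoters. The sites in the inhibitor Nfkbia, the chemokine Cxcl2 and the MHC class I light chain B2m are printed with their letters in capitals:
Nfkbia promoter, chr12:55492648-55492727 (- strand): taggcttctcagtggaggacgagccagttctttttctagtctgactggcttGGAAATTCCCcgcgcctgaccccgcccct
Cxcl2 promoter, chr5:90903779-90903898 (+ strand): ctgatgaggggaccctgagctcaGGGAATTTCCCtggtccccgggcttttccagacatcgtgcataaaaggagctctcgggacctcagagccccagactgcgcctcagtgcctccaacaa
B2m promoter, chr2:122147547-122147686 (+ strand): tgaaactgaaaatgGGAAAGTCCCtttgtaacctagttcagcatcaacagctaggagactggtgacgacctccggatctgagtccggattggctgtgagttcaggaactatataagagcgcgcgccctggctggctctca
Only κB letters are in capitals here. In the B2m stretch, lower-case letters just before the κB site also match the response element GAAANNGAAA. The 3 genes had log2 fold changes of 1.13 for Nfkbia, 1.47 for Cxcl2 and 2.66 for B2m.

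Of 19 Toll-like receptors and adaptors tested, 14 were higher and none lower, against 14.5% and 15.4% of all genes (median log2 fold change 0.96). Tlr1 and Tlr6, which pair with Tlr2 at the cell surface, had log2 fold changes of 2.36 and 1.45. Tlr2 was at 177, 147, 199 and 128 CPM with tau fibrils and 42, 38.4, 43 and 45.8 CPM with vehicle and Tlr4 at 23.4, 35.2, 30.2 and 39 CPM with tau fibrils and 21.6, 15.9, 15.1 and 13.6 CPM with vehicle (adjusted p = 8.5e-11 and 0.0016). For both receptors every library with tau fibrils lay above every vehicle library. Cd14, the coreceptor of both, rose from 129 ± 15.5 to 440.1 ± 107 CPM (mean ± SD, n = 4). Unc93b1, which carries the nucleic acid receptors to endosomes, and the adaptor Myd88 had log2 fold changes of 2.02 and 1.94. The RNA receptors Tlr3, Tlr7 and Tlr13 rose by 1.76, 0.91 and 0.38, and Irak3, which restrains the pathway, by 1.35. Tlr8, Ly96, Tirap, Ticam1 and Irak1 were not called, and Tlr5 and Tlr9 had too few counts.

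Secreted factors changed selectively. Among cytokines and antagonists, 6 of 12 genes tested rose, 2 fell and 13 had too few counts (median log2 fold change 0.62). Ebi3, a subunit of interleukin 27 and 35, was at 82.9, 87.9, 98.5 and 94 CPM with tau fibrils and 16.9, 20.9, 19.4 and 18 CPM with vehicle (log2 fold change 2.25, SE 0.17, adjusted p = 2.5e-11), Tgfb1 at 36, 33.8, 64.3 and 37.9 CPM with tau fibrils and 20.4, 14.4, 13.2 and 12 CPM with vehicle, and Il15 had a log2 fold change of 1.06. Vegfa fell from 16.6 ± 3.13 to 7.4 ± 1.53 CPM and Csf1, a growth factor of microglia, from 50.1 ± 17.8 to 28.2 ± 11.2 CPM (mean ± SD, n = 4, adjusted p = 0.0032 and 0.011). Il6 was at 0, 0, 0.794 and 0 CPM with tau fibrils and 0.583, 0.61, 0 and 0 CPM with vehicle and Il10 at 0, 0, 0.397 and 1.6 CPM with tau fibrils and 0, 0, 0 and 0 CPM with vehicle, so a difference was not detectable at this depth for either. Il12a, Csf2 and Csf3 had 0 counts in all 8 libraries, and Il18, Osm, Igf1 and Pdgfb were not called. Leaving out tau fibrils 2 or vehicle 2 left 1 of the 2 decreases.

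Of 13 chemokine genes tested, 9 rose and none fell, against 14.5% and 15.4% of all genes (median log2 fold change 1.06). Ccl5, which draws T cells and monocytes, at chr11:83525778-83530518, was at 3485, 3751, 3678 and 3048 CPM with tau fibrils and 53.1, 47.6, 52 and 24.5 CPM with vehicle, and its groups were far apart. Cxcl9, a ligand of Cxcr3, was at least 36-fold higher, and Cxcl10, another ligand of that receptor, had a log2 fold change of 2.42. Cxcl16 was at 673, 740.1, 799 and 747 CPM with tau fibrils and 111, 93.7, 131 and 117 CPM with vehicle and Ccl9 at 137 ± 10.1 CPM in tau-stimulated cells and 26.8 ± 7.61 CPM in vehicle-treated cells. Ccl3 and Ccl4, which are common products of microglia in culture, rose less (1.06 and 0.86), while Ccl2 was at 25.8, 14, 31.8 and 36.3 CPM with tau fibrils and 18.1, 38.4, 9.46 and 25.1 CPM with vehicle and was not called (adjusted p = 0.72), nor were Ccl6, Ccl7 and Cxcl14. Of chemoattractant receptors 8 of 12 rose and none fell (median log2 fold change 1.11). The formyl peptide receptors Fpr1 and Fpr2 were the strongest, with Fpr2, which also binds aggregated peptides, at 29.4, 37.4, 44.5 and 45.9 CPM with tau fibrils and 0.583, 1.22, 2.36 and 1.09 CPM with vehicle (log2 fold change 4.84, SE 0.33, adjusted p = 3.5e-12) and Fpr1 at a log2 fold change of 3.95. Gpr84, a receptor for medium-chain fatty acids, had 2.82, Ptafr, the receptor of platelet-activating factor, 1.31 and C3ar1 1.21, and Cxcr4, Ackr3 and C5ar2 were not called, although 1 receptor was called lower without vehicle 2.

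Genes of MHC class I presentation rose, with 18 of 19 tested higher, none lower and a median log2 fold change of 2.01. The heavy chain gene H2-K1 was at 2179, 2167, 2236 and 2844 CPM with tau fibrils and 237, 285, 202 and 228 CPM with vehicle (log2 fold change 3.30, SE 0.15, adjusted p = 4.1e-16) and the light chain gene B2m at 3859, 3812, 5428 and 5551 CPM with tau fibrils and 783, 765, 696 and 704 CPM with vehicle (log2 fold change 2.66, SE 0.15, adjusted p = 4.1e-14). Neither gene had overlapping groups. The immunoproteasome subunits Psmb8, Psmb9 and Psmb10 had log2 fold changes of 2.66, 3.02 and 2.01, the peptide transporter Tap1 2.64 and the loading factor Tapbp 2.66. Nlrc5, the transactivator of class I genes, was at 9.12 ± 2.26 CPM in tau-stimulated cells and 2.28 ± 1.18 CPM in vehicle-treated cells. Tap2 was not called (adjusted p = 0.11). H2-Q7, at a log2 fold change of 4.66, belongs to a family of near-identical genes and its reads are uncertain. The genes of MHC class II itself were low. Ciita, H2-Aa, H2-Ab1, H2-Eb1 and Cd74 were too low for the test, with Cd74 at 3.6, 1.8, 7.54 and 5.34 CPM with tau fibrils and 0.583, 0.406, 0.946 and 0.545 CPM with vehicle. Of the 5 genes tested on that list Ctss and Ifi30, which process antigen in endosomes, rose (1.16 and 1.15), and H2-DMa, H2-DMb1 and Rfx5 were not called.

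Costimulatory and checkpoint genes were higher for 11 of 16 tested and lower for 2 (median log2 fold change 1.04). Cd69, an early activation marker, was at 16.2, 21.6, 12.3 and 13.3 CPM with tau fibrils and 1.75, 0.813, 0.473 and 1.09 CPM with vehicle and Slamf8 at 10.8, 21.2, 22.6 and 12.8 CPM with tau fibrils and 6.41, 0.61, 0.946 and 0.545 CPM with vehicle (log2 fold change 3.98, SE 0.44, adjusted p = 5.7e-08 and log2 fold change 3.26, SE 0.51, adjusted p = 1.4e-05). In Slamf8 the vehicle 1 library lay well above the other 3 of its group, and without it the log2 fold change was 4.56 (adjusted p = 1.31e-07). Icosl, Lgals9, Icam1, Cd86 and Cd274 (PD-L1) had log2 fold changes of 2.81, 2.77, 2.62, 0.82 and 1.25. Cd83 fell by 0.76 on the log2 scale, and Vsir (VISTA) had a log2 fold change of -0.35 that was called in 8 of 15 alternative analyses, with adjusted p values of 0.0581 to 0.101 in the others. Neither decrease on this list was called without tau fibrils 3 or without tau fibrils 4, and 1 was called when tau fibrils 1, tau fibrils 2, vehicle 2, vehicle 3 or vehicle 4 was left out.

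Complement and Fc receptor genes rose for 12 of 16 tested, with 1 lower (median log2 fold change 1.48). C3, the hub of the complement cascade, was at 582, 663, 684 and 481 CPM with tau fibrils and 14, 8.94, 16.6 and 10.9 CPM with vehicle. Cfb, which forms the alternative pathway convertase with C3, was at least 20.8-fold higher, and Cfp (properdin), which stabilizes it, had a log2 fold change of 1.99. The 3 chains of C1q rose less, by log2 fold changes of 1.74 for C1qa, 1.38 for C1qb and 1.08 for C1qc, next to a median of 1.08 for the 13 microglial markers, of which C1qa is one. The Fc receptors diverged. Fcgr1 and Fcgr4 rose (3.19 and 2.15) and so did their signalling chain Fcer1g (2.19). Fcgr3 was at 172, 185, 232 and 185 CPM with tau fibrils and 252, 451, 288 and 389 CPM with vehicle (log2 fold change -0.84, SE 0.16, adjusted p = 1.6e-04) and the inhibitory receptor Fcgr2b at 41.3 ± 10.3 CPM in tau-stimulated cells and 58.3 ± 15 CPM in vehicle-treated cells, not called (adjusted p = 0.066). Without vehicle 1 or without vehicle 2, 2 genes of this list were lower.

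Uptake receptors were split, with 11 of 27 tested higher, 2 lower and 14 not called (median log2 fold change 0.32). Marco, a class A scavenger receptor of macrophages at chr1:120474538-120505024, was at 299, 352, 283 and 225 CPM with tau fibrils and 5.83, 3.25, 2.84 and 2.73 CPM with vehicle (log2 fold change 6.34, SE 0.22, adjusted p = 2.3e-18). The groups were far apart. Clec4e (Mincle), which binds glycolipids and material of dead cells, was at 32.4, 34.3, 44.1 and 38.4 CPM with tau fibrils and 5.25, 0.61, 4.73 and 0.545 CPM with vehicle, and Siglec1, Clec5a, Clec4d and Msr1 had log2 fold changes of 3.30, 1.61, 1.48 and 1.33. Axl, a receptor for apoptotic cells, rose by 0.66, while its relatives Mertk and Tyro3 were not called, and the bridging protein Mfge8 was at 121, 139, 179.8 and 119 CPM with tau fibrils and 237, 349, 227 and 229.6 CPM with vehicle (log2 fold change -0.90, SE 0.16, adjusted p = 6.3e-05). Lrp1, a receptor known to take up tau, was at 249, 248, 276 and 368 CPM with tau fibrils and 444, 480.3, 367 and 519 CPM with vehicle (log2 fold change -0.67, SE 0.14, adjusted p = 7.1e-04), and its groups overlapped at the edge. Mapt, the gene of tau itself, was at 65.5, 85.7, 82.2 and 75.8 CPM with tau fibrils and 123, 139, 131 and 117 CPM with vehicle (log2 fold change -0.72, SE 0.14, adjusted p = 1.8e-04), lower with tau fibrils in every library, and 7 of 9 neuronal markers tested were lower in the same libraries. Trem2 was at 481, 524, 605 and 512 CPM with tau fibrils and 481, 565, 614 and 609.8 CPM with vehicle and was not called, nor were Tyrobp, Cd36, Scarb2, Mrc1 and Sorl1.

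Genes of resting microglia did not move in a common direction. Of 22 tested 10 rose, 3 fell and 9 were not called (median log2 fold change 0.21). Cx3cr1, the fractalkine receptor, was at 3304, 3722, 3244 and 3023 CPM with tau fibrils and 1494, 1968, 1433 and 1378 CPM with vehicle and Csf1r, the receptor on which microglial survival depends, at 1178, 1334, 1341 and 1180.0 CPM with tau fibrils and 512, 531, 528 and 595 CPM with vehicle (log2 fold change 1.08, SE 0.14, adjusted p = 4.8e-07 and log2 fold change 1.22, SE 0.12, adjusted p = 8.9e-09). Both stood above the vehicle libraries throughout. Tmem119 was at 64.9, 83.9, 68.7 and 39 CPM with tau fibrils and 14, 8.74, 17.5 and 15.3 CPM with vehicle (log2 fold change 2.27, SE 0.24, adjusted p = 2.9e-08), and the transcription factors Maf and Spi1 (PU.1) had log2 fold changes of 1.58 and 1.5. P2ry12, the ADP receptor of ramified microglia, was at 7.21, 5.41, 9.92 and 5.87 CPM with tau fibrils and 6.41, 4.06, 9.46 and 7.64 CPM with vehicle and overlapped between the groups, as did Sall1 (30.2 ± 4.45 CPM in tau-stimulated cells and 39.2 ± 14.7 CPM in vehicle-treated cells, adjusted p = 0.19). Gpr34, a lysophosphatidylserine receptor, was at 13.2, 14, 15.5 and 12.3 CPM with tau fibrils and 31.5, 48.2, 33.1 and 46.4 CPM with vehicle (log2 fold change -1.54, SE 0.22, adjusted p = 3.7e-06), with each library of the tau fibril group below each vehicle library. Sparc and Rhob also fell (-0.86 and -0.54), and Fcrls, Mef2a, Mef2c and Cst3 were not called.

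Disease-associated microglia (DAM) genes were likewise mixed, with 11 of 29 higher, 7 lower and a median log2 fold change of 0.13 (-0.02 with library totals as the scale). Those with the largest increases, Cd52 and B2m (2.90 and 2.66), encode a surface peptide of leukocytes and the class I light chain. Fth1, the heavy chain of ferritin, was at 26802, 25661, 29550.1 and 30596 CPM with tau fibrils and 9456, 7255, 10147 and 9584 CPM with vehicle (log2 fold change 1.63, SE 0.14, adjusted p = 6.7e-10), with a mean of 28152 CPM with tau fibrils. Apoe, which carries lipid between brain cells, was at 6727, 7485, 9212 and 7094 CPM with tau fibrils and 5239.6, 5982, 5949 and 6445 CPM with vehicle (log2 fold change 0.37, SE 0.13, adjusted p = 0.038) and was called in 9 of 15 alternative analyses, with adjusted p values of 0.0543 to 0.265 in the others. Spp1 (osteopontin) was at 565, 470.4, 600.2 and 596 CPM with tau fibrils and 1152, 1110.1, 1059 and 1668 CPM with vehicle (log2 fold change -1.16, SE 0.14, adjusted p = 4.3e-07). Cd9, Ank, Fabp5, Csf1, Gpnmb and Ctsd also fell, with log2 fold changes of -0.97, -1.03, -0.64, -0.85, -0.42 and -0.65. Cd63, Lgals3, Ctsb, Ctsl, Timp2, Igf1 and Itgax were not called. Of 26 genes tested near Alzheimer risk loci 14 were higher and 5 lower (median log2 fold change 0.45). The membrane proteins Ms4a6b, Ms4a6c and Ms4a6d had log2 fold changes of 3.56, 3.36 and 2.44, Grn (progranulin) 1.23 and Plcg2 0.91. Clu, Fermt2, Cnn2, Tmem106b and Mapt fell, and Picalm, Abca7, Mef2c, Cd2ap, Adam10, Sorl1 and Trem2 were not called.

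**Figure D4:**
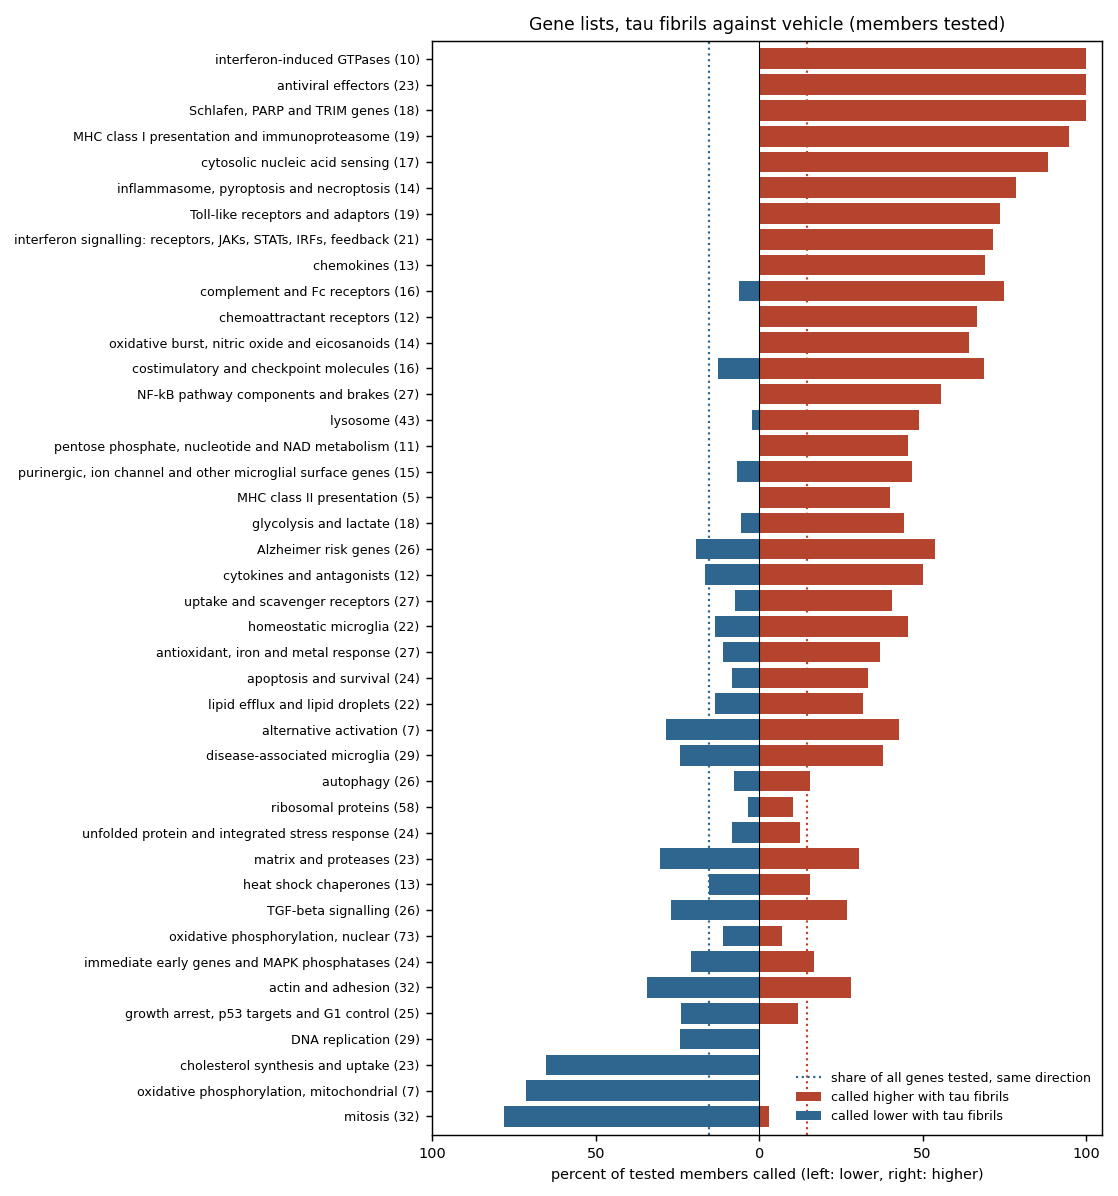
For each of 42 gene lists, the percent of tested members called higher (right, red) and called lower (left, blue) with tau fibrils, with the number tested in brackets and dotted lines at the shares of all genes tested (14.5% and 15.4%). All members tested of the antiviral, GTPase and Schlafen, PARP and TRIM lists were higher, and 25 of 32 mitotic genes were lower. Among them at least 5 antiviral genes and at least 1 GTPase passed the count filter through the tau fibril libraries alone.

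The TGF-β pathway, which maintains resting microglia, had 7 of 26 genes higher and 7 lower (median log2 fold change -0.08). These shares were 26.9% each, next to 14.5% higher and 15.4% lower of all genes. Higher were the ligand Tgfb1, its presenting protein Nrros (0.92), the receptors Tgfbr1 (0.67) and Acvrl1 (0.83), and Smad3, Skil and Tgif1. Lower were Tgfb2 (-0.82), the activating integrin chain Itgb8 (-1.16), the BMP receptors Bmpr1a and Bmpr2, and the target genes Id1, Id2 and Id3 (-0.80, -0.42 and -0.52). Genes of alternative activation were mostly out of range, 11 of 18 with too few counts, Arg1, Retnla, Chil3 and Cd163 among them. Il10ra was at 55.9, 59.1, 62.3 and 52.9 CPM with tau fibrils and 19.2, 8.74, 18 and 13.1 CPM with vehicle (log2 fold change 2.03, SE 0.22, adjusted p = 4.3e-08), Il4ra and Trib1 rose by 0.75 and 0.48, Klf4 fell (-1.17), and Socs2 had -0.62, called in 7 of 15 alternative analyses, with adjusted p values of 0.0654 to 0.147 in the others. Only 1 of the 2 decreases was called when any of tau fibrils 1, 2 and 3 or vehicle 1, 2 and 3 was left out.

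Several subunit genes of the phagocyte oxidase rose. Of 14 genes tested for oxidative burst, nitric oxide and eicosanoids 9 were higher and none lower (median log2 fold change 0.80). Its catalytic subunit Cybb was at 2307, 2428, 2557 and 2440.1 CPM with tau fibrils and 473, 440.2, 433 and 367 CPM with vehicle (log2 fold change 2.51, SE 0.13, adjusted p = 8.7e-15), with the partners Cyba, Ncf1, Ncf4 and Rac2 at log2 fold changes of 1.57, 1.65, 1.85 and 2.43. Acod1, which makes itaconate, was at 51.1, 47.4, 67.1 and 45.4 CPM with tau fibrils and 4.66, 4.47, 3.78 and 4.36 CPM with vehicle (log2 fold change 3.59, SE 0.24, adjusted p = 2.7e-12). Nos2, the inducible nitric oxide synthase, had 0 counts in all 8 libraries, which allows up to 3 counts in each, and the eicosanoid enzymes Ptgs1, Alox5ap, Lta4h, Ltc4s and Tbxas1 were not called. Among antioxidant, iron and metal response genes 10 of 27 rose and 3 fell (median log2 fold change 0.18). Saa3, an acute phase protein, was at 3063, 3533, 3219 and 2577 CPM with tau fibrils and 113, 77.6, 104 and 52.4 CPM with vehicle (log2 fold change 5.16, SE 0.19, adjusted p = 1.5e-17). Sod2 and Prdx5, which are mitochondrial antioxidant enzymes, and Lcn2, which sequesters iron carriers, had log2 fold changes of 1.87, 2.06 and 2.13. The Nrf2 targets Hmox1, Gclc, Gclm, Txnrd1 and Srxn1 were not called, with Hmox1 at 287, 282, 417 and 431 CPM with tau fibrils and 418, 418, 389 and 316 CPM with vehicle, whereas Slc7a11 and Prdx1, also targets of Nrf2, rose (1.17 and 0.55). The metallothioneins Mt1 and Mt2 and the iron exporter Slc40a1 fell (-0.84, -0.99 and -0.84).

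Cholesterol synthesis fell. Of 23 genes tested 15 were lower, against 15.4% of all genes, and none higher (median log2 fold change -0.74). The synthase Hmgcs1 was at 511, 521, 418 and 398 CPM with tau fibrils and 882, 917, 967 and 845 CPM with vehicle (log2 fold change -0.97, SE 0.13, adjusted p = 1.1e-06). All libraries with tau fibrils were below all vehicle libraries. The desaturases Scd1 and Scd2 and the fatty acid synthase Fasn fell as well (-0.74, -0.99 and -0.96), while Srebf2, Lss, Msmo1, Nsdhl, Dhcr7, Fdps and Stard4 were not called. The astrocyte markers had a median log2 fold change of -0.87 in the same libraries, and their part in this result was not tested. Genes of lipid efflux went the other way for the regulator and transporters. Nr1h3, the liver X receptor α, was at 26.4, 41.9, 39.7 and 27.8 CPM with tau fibrils and 2.33, 5.28, 2.36 and 4.91 CPM with vehicle (log2 fold change 3.08, SE 0.30, adjusted p = 3.8e-09), and Abca1, Abcg1 and Ch25h had log2 fold changes of 1.06, 0.87 and 1.34. In that list 7 of 22 rose and 3, the lipase Mgll, the phosphatase Lpin1 and the fatty acid carrier Fabp5, fell (median log2 fold change 0.20).

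Genes of glucose metabolism changed modestly. Glycolysis and lactate genes were higher for 8 of 18 tested and lower for 1, the lactate carrier Slc16a1 (median log2 fold change 0.26). Without tau fibrils 3, only 3 were higher. Pfkfb4, a bifunctional regulator of glycolytic flux, was at 43.2, 44.6, 44.9 and 69.9 CPM with tau fibrils and 12.8, 15.9, 16.1 and 17.5 CPM with vehicle (log2 fold change 1.69, SE 0.21, adjusted p = 4.4e-07) and Aldoa had a log2 fold change of 0.75. Gapdh, Pgk1 and Pgam1 were counted at under 2 CPM in both groups. These genes have near-identical pseudogene copies, so their values are uncertain. For pentose phosphate, nucleotide and NAD metabolism 5 of 11 were higher and none lower (median log2 fold change 0.28), with Xdh, which makes uric acid, at 75.7, 78.5, 77.8 and 75.8 CPM with tau fibrils and 14, 20.1, 16.6 and 16.9 CPM with vehicle (log2 fold change 2.15, SE 0.18, adjusted p = 1.8e-10), and Dck, Nadk and Nampt at 1.84, 1.51 and 1.11.

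Lysosomal genes rose moderately, 21 of 43 tested higher and 1 lower, with a median log2 fold change of 0.40. The exception was Ctsd, the main aspartyl protease, at 10524, 12081, 11795 and 12588 CPM with tau fibrils and 15312, 20895, 17046 and 20321 CPM with vehicle (log2 fold change -0.65, SE 0.14, adjusted p = 7.3e-04). Ctsc, which activates granule proteases, was at 596, 553, 571 and 599.6 CPM with tau fibrils and 119.5, 138, 117 and 169 CPM with vehicle (log2 fold change 2.09, SE 0.14, adjusted p = 1.0e-12), and Ctsh, Ctss, Ctsz and Npc2 had log2 fold changes of 1.18, 1.16, 0.98 and 1.17. The transcription factors Tfec, Tfe3 and Mitf rose by 2.73, 0.97 and 0.85, whereas Tfeb was not called. Lamp1 was at 1911, 2132, 1944 and 1968 CPM with tau fibrils and 1432, 1686, 1525 and 1770.0 CPM with vehicle, with an adjusted p of 0.056 that misses the threshold and was 0.012 to 0.0283 in the 3 of 15 alternative analyses that called it. The proton pump subunits Atp6v0d1, Atp6v1a and Atp6v1h were not called. Autophagy genes were higher for 4 and lower for 2 of 26 tested, near or under the 14.5% and 15.4% of all genes (median log2 fold change -0.02). Leaving out vehicle 3 left 2 of the increases and 1 decrease, and leaving out tau fibrils 1, tau fibrils 2 or vehicle 1 left 1 decrease. The cargo receptor Sqstm1 (p62) was at 524, 556, 498 and 615 CPM with tau fibrils and 409.9, 392, 427 and 374 CPM with vehicle (log2 fold change 0.45, SE 0.12, adjusted p = 0.0054), Gabarap, Atg5 and Uvrag rose by 0.39, 0.51 and 0.62, and Map1lc3a and Wipi1 fell (-0.60 and -0.51).

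Stress pathways of the endoplasmic reticulum and of protein folding had few calls, with shares near or under the 14.5% higher and 15.4% lower of all genes. In the unfolded protein and integrated stress response 3 of 24 were higher and 2 lower (median log2 fold change 0.04). Ddit3 (CHOP) was at 104, 126, 137 and 112 CPM with tau fibrils and 44.9, 51.6, 42.1 and 39.8 CPM with vehicle (log2 fold change 1.41, SE 0.15, adjusted p = 2.3e-08), though it overlaps the Mars gene on the other strand, and Herpud1 and Xbp1 rose by 0.98 and 0.41. Chac1 and Dnajb9 fell (-1.52 and -0.62), and the chaperone Hspa5 (BiP) and the factor Atf4 were not called. Leaving out tau fibrils 3, vehicle 1 or vehicle 4 left 1 of the 2 decreases. Among heat shock chaperones 2 of 13 were higher, Hspa8 and Hsf1, and 2 lower, Hsp90aa1 and Hspb8 (median log2 fold change -0.05). Hsf1 was called in 7 of 14 alternative analyses, with adjusted p values of 0.052 to 0.141 in the others, and neither increase was called without tau fibrils 3 or without vehicle 4. Immediate early genes and MAPK phosphatases, 24 h after addition of the fibrils, were higher in 4 and lower in 5 of 24, shares near those of all genes (median log2 fold change -0.27). Fos was at 103, 113, 109.6 and 129 CPM with tau fibrils and 61.8, 45.5, 41.6 and 36.5 CPM with vehicle (log2 fold change 1.30, SE 0.16, adjusted p = 3.5e-07), and Junb, which overlaps Prdx2 on the other strand, Ier5 and Atf3 rose by 1.23, 0.72 and 0.43. Bhlhe40, Nr4a2, Dusp16, Egr1 and Jun fell (-1.22, -1.12, -0.86, -0.66 and -0.52).

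Genes of cell division fell with tau fibrils, in mitosis for most members and in DNA replication for some. Of 32 mitotic genes tested 25 were lower and 1 higher (median log2 fold change -1.12). Cdk1, the kinase that drives entry into mitosis, was at 54.7, 42.4, 46.8 and 56.1 CPM with tau fibrils and 99.7, 104, 97 and 133 CPM with vehicle (log2 fold change -1.12, SE 0.15, adjusted p = 2.3e-06). Mki67, the marker of cycling cells, was at 22.2, 14.9, 9.92 and 13.3 CPM with tau fibrils and 36.2, 27, 44 and 24.5 CPM with vehicle (log2 fold change -1.14, SE 0.25, adjusted p = 1.0e-03). In both genes all libraries with tau fibrils were below all vehicle libraries. Nusap1 and Ccnb1 (cyclin B1) had log2 fold changes of -1.5 and -1.41. Pttg1 (securin) was the exception at 105, 113, 104 and 151 CPM with tau fibrils and 43.7, 54.1, 55.3 and 43.6 CPM with vehicle (log2 fold change 1.25, SE 0.16, adjusted p = 4.6e-07). In DNA replication 7 of 29 fell (24.1%, against 15.4% of all genes) and none rose (median log2 fold change -0.37), and without tau fibrils 3 only 3 fell. Rrm2, which supplies deoxynucleotides, was at 22.2, 18.5, 13.5 and 19.2 CPM with tau fibrils and 65.3, 55.9, 37.4 and 51.3 CPM with vehicle (log2 fold change -1.53, SE 0.21, adjusted p = 2.7e-06), and Cdc6 and Ccne1 had log2 fold changes of -1.25 and -1.12. Of the replicative helicase Mcm4 fell (-0.70), while Mcm2, Mcm3, Mcm5, Mcm6 and Mcm7 were not called, nor was the clamp Pcna. Astrocyte and neuronal markers, whose medians were -0.87 and -0.89, fell in the same libraries, and their part in this result was not tested.

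Promoters of mitotic genes often hold a cell cycle homology region near the start, searched as TTTGAA. It occurred in 38.7% of the promoters of the mitotic genes tested (12 of 31), in 10.1% of promoters of all genes tested and in 16% of all promoters. Lists that rose held it too, with 55.6% of the GTPase promoters (5 of 9) and 27.8% of those of the Schlafen, PARP and TRIM genes (5 of 18). It occurred within 100 bases of the start in 25.8% of the mitotic promoters and 3.01% of those tested. An E2F element, TTTGGCGC or TTTCGCGC, occurred in 15.6% of the promoters of the DNA replication genes (5 of 32), in 1.26% of promoters of all genes tested and in 0.654% of all promoters. Promoters of 5 mitotic genes that fell are printed with the letters in capitals:
Cdk1 promoter, chr10:69352913-69352992 (- strand): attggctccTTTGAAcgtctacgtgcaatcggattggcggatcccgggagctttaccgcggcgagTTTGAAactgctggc
Cdc20 promoter, chr4:118437344-118437423 (- strand): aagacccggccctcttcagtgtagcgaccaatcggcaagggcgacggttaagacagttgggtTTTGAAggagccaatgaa
Kif11 promoter, chr19:37376302-37376381 (+ strand): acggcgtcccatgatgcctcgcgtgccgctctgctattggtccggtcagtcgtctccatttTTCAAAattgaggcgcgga
Prc1 promoter, chr7:80294396-80294475 (+ strand): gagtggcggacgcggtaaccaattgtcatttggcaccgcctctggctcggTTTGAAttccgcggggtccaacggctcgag
Ube2c promoter, chr2:164769849-164769928 (+ strand): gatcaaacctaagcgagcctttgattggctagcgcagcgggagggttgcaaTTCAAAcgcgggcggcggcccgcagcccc
Their log2 fold changes were -1.12 for Cdk1, -1.23 for Cdc20, -1.28 for Kif11, -1.05 for Prc1 and -1.08 for Ube2c. The letters occurred in 11.7% of the promoters of genes called higher.

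Growth arrest and p53 target genes were higher in 3 and lower in 6 of 25 tested (median log2 fold change -0.27). These shares were 12% and 24%, next to 14.5% and 15.4% of all genes. Cdkn1a (p21), which stops the cell cycle, was at 648, 692, 615 and 625 CPM with tau fibrils and 409.9, 427, 416 and 393 CPM with vehicle (log2 fold change 0.65, SE 0.12, adjusted p = 1.2e-04), higher in every library. Sesn1 and Bax rose by 0.69 and 0.66. Ccnd2, a cyclin of the G1 phase, was at 1144, 1091, 941 and 929 CPM with tau fibrils and 2335, 2604, 2459 and 2262 CPM with vehicle (log2 fold change -1.24, SE 0.13, adjusted p = 1.2e-08), and Ccnd1, Eda2r, Trp53inp1, Plk2 and Cdkn2d also fell. Mdm2, Trp53 and Ccng1 were not called. Without tau fibrils 3 the increases on this list went down to 1, and Sesn1 had an adjusted p of 0.0645. Apoptosis and survival genes were higher for 8 of 24 (33.3%) and lower for 2 (8.33%), among them Bcl2 (-0.93), which was not called without vehicle 3. The survival factors Mcl1 and Cflar rose by 0.72 and 0.87, the TNF receptor Tnfrsf1b by 1.64 and the initiator Casp8 by 1.01. Bcl2a1a had 3.65 but its near-identical copy Bcl2a1b -0.02, so the division of reads between them is uncertain. In the inflammasome, pyroptosis and necroptosis list 11 of 14 were higher and none lower (median log2 fold change 1.36). Casp1, Casp4, the pore protein Gsdmd, the adaptor Pycard and the sensor Nlrp3 had log2 fold changes of 2.06, 2.89, 1.76, 1.69 and 1.59, with Nlrp3 at 19.8, 10.8, 18.7 and 13.3 CPM with tau fibrils and 9.91, 4.06, 2.36 and 5.45 CPM with vehicle.

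Cytoskeletal and adhesion genes moved both ways, 9 higher and 11 lower of 32 (median log2 fold change -0.14). These shares were 28.1% and 34.4%, against 14.5% and 15.4% of all genes. The leukocyte genes Itgal, Coro1a and Itga4 rose, with Itgal, the αL chain of LFA-1, at 260.1, 296, 298 and 334 CPM with tau fibrils and 35.6, 43.7, 36.4 and 46.9 CPM with vehicle (log2 fold change 2.86, SE 0.14, adjusted p = 5.7e-15). The smooth muscle type genes Acta2, Tagln and Myl9 fell (-1.62, -1.71 and -1.25). Acta2 and Tagln are also on the list of fibroblast and mural cell markers. The 5 markers tested on that list had log2 fold changes of -1.71 to -0.38, with a median of -0.47. Col1a1, Col1a2 and Thy1 among them were not called, and Lum was at 0. The part of these markers in the decreases was not tested. Lsp1, an actin-binding protein of leukocytes, had the lowest fitted log2 fold change of all genes tested (-2.70, SE 0.40, adjusted p = 6.9e-06). It was at 4.2, 2.25, 0.794 and 2.14 CPM with tau fibrils and 16.3, 14.4, 16.1 and 12 CPM with vehicle. It passed the count filter through the vehicle libraries alone, so its direction was fixed. Frmd6 and Afap1l2, also on this list, followed with log2 fold changes of -2.45 and -2.36. The list was chosen with earlier results of these data known. The Notch target Hes1 was at 5.41, 7.67, 3.97 and 3.74 CPM with tau fibrils and 19.8, 20.5, 26.5 and 24 CPM with vehicle (log2 fold change -2.11, SE 0.30, adjusted p = 3.1e-06), and the other genes among the 10 lowest, Msrb3, Tceal5, Dkk2, Minar1, Pbx4 and Mamdc2, ranged from -2.14 to -2.01. Matrix and protease genes had 7 higher and 7 lower of 23, or 30.4% in each direction (median log2 fold change 0.21). Mmp9 was at 25.8, 25.7, 24.6 and 25.6 CPM with tau fibrils and 0.583, 1.22, 1.42 and 1.64 CPM with vehicle (log2 fold change 4.31, SE 0.35, adjusted p = 1.3e-10), Tgfbi had 3.89 and Mmp14 2.12, whereas the macrophage elastase Mmp12 was at 182, 169.6, 142 and 144 CPM with tau fibrils and 362, 351, 319.7 and 381 CPM with vehicle (log2 fold change -1.15, SE 0.13, adjusted p = 6.9e-08) and Timp3 and Thbs1 fell (-0.97 and -0.90). Of purinergic, channel and other surface genes 7 of 15 rose and 1, the sphingosine 1-phosphate receptor S1pr1, fell (-0.61). Trpm2, a channel opened by oxidative stress, was at 25.2, 25.7, 18.3 and 18.7 CPM with tau fibrils and 0, 2.85, 1.89 and 2.18 CPM with vehicle and the prostaglandin receptor Ptger4, which overlaps Ttc33 on the other strand, had a log2 fold change of 2.12.

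Ribosomal and nuclear oxidative phosphorylation genes had fewer calls in either direction than the 14.5% and 15.4% of all genes, while most mitochondrially encoded genes tested fell. Ribosomal protein genes were higher for 6 and lower for 2 of 58 tested (median log2 fold change 0.11, -0.05 with library totals as the scale), with many copies in the genome that can take their reads. Rpl30 was at 32.4, 28.9, 15.5 and 12.8 CPM with tau fibrils and 32.7, 36.6, 37.8 and 114 CPM with vehicle (log2 fold change -1.29, SE 0.33, adjusted p = 0.0032), where vehicle 4 lay far above the others, and without it the log2 fold change was -0.69 (adjusted p = 0.0415). Without tau fibrils 3 the increases went down to 3, without tau fibrils 4 the decreases to 1, and without vehicle 1 or vehicle 2 the decreases rose to 4. Nuclear genes of oxidative phosphorylation were higher for 5 and lower for 8 of 73 (median -0.01), and 0 were lower without vehicle 4, 4 without tau fibrils 3 or 4 and 5 without tau fibrils 1 or 2. Cox6a2, a muscle-type subunit that is also on the DAM list, was at 10.8, 6.76, 12.3 and 9.08 CPM with tau fibrils and 2.92, 1.22, 0 and 4.91 CPM with vehicle (log2 fold change 2.25, SE 0.51, adjusted p = 0.0012). Of 7 protein-coding genes of the mitochondrial genome tested 5 fell and none rose (median log2 fold change -0.38), with mt-Cytb at 1335, 1334, 1505 and 1410.1 CPM with tau fibrils and 1851, 2276, 1965 and 2754 CPM with vehicle (log2 fold change -0.66, SE 0.13, adjusted p = 3.8e-04). Leaving out tau fibrils 1 left 2 of these calls, and leaving out tau fibrils 4 or vehicle 2 left 3.

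**Figure D5:**
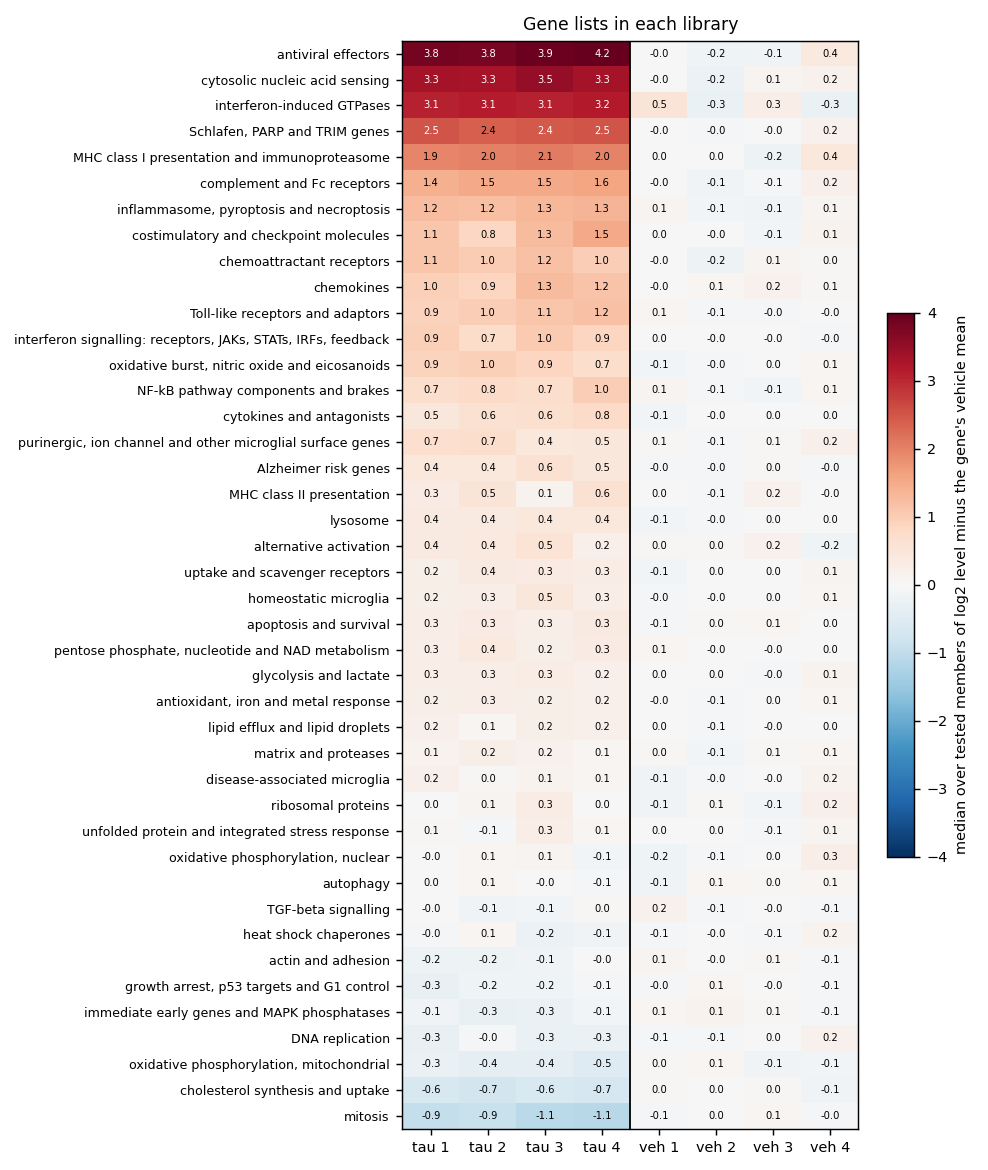
Median over the tested members of each list of the log2 level minus the gene's vehicle mean (colour and printed value), in each of the 8 libraries. The antiviral list was at 3.79 to 4.23 in the 4 libraries with tau fibrils and at -0.18 to 0.38 with vehicle, and the mitosis list at -1.11 to -0.90 and -0.06 to 0.09.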

How the data were processed

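Gene expression was measured in 8 libraries of cultured microglia, grouped by the source label of each sample. The authors isolated RNA with a column kit, prepared stranded QuantSeq 3′ (FWD) libraries and mapped reads to GENCODE GRCm38 with Lexogen QuantSeq 2.2.3 on the BlueBee platform. Per the labels the tools also include STAR, RSEM, edgeR and limma. The deposited values are raw read counts for 47643 Ensembl genes per library, with no normalization, and whether strand was used in counting is not given in the sources used here. The 5 closing rows of each table, which name no gene and hold reads outside genes or with no unique position, were left out of library sizes and tests, and reads outside genes are given in the report as a share.

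Symbols came from GENCODE M21 (47224 identifiers matched). Counts were filtered with filterByExpr (minimum count 10, minimum total 15), normalized by TMM and fitted with edgeR 4.0.16 (R 4.3.3) in the quasi-likelihood test, with Benjamini-Hochberg FDR under 0.05 over all genes tested and no covariate. The SE given with a log2 fold change was taken as its size divided by the square root of the F statistic. Levels are CPM with TMM library sizes. If no library of a group exceeded 3 counts, the fold is a lower bound, computed against 3 counts in each library. Such limits cover counting error only. The total count per library was 1672052 to 4640645, and the biological coefficient of variation was 16.7%. Alternatives were RLE and total-count scaling, DESeq2 1.42.0, limma-voom (limma 3.58.1), 2 other filters, thinning to 1672052 counts, and leaving out each library in turn. Promoters and their positions are from RefSeq (GRCm38.p6). Summaries were made in Python 3.11.15 with pandas 2.3.3 and numpy 2.4.6.

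The gene lists, the cell type markers and the members were chosen with earlier results of these data known. Genes were named by this rule: the 10 highest and 10 lowest called genes without overlap of the groups and with a mean count of at least 10 in the higher group, the strongest such genes of each list in both directions, and defining members of each pathway. Further list members were named after their values were seen. Some list members count in their lists but are not reported here by name.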

Additional observations from a re-analysis of the deposited data

Results flagged for a closer look

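In 22 of 376 sets of 4 values, 1 library stood apart from the other 3 of its group by more than Dixon's 95% limit, and chance flags about 1 in 20 such sets. The total count of vehicle 2 was 4640645, against 1672052 to 2119815 in the other vehicle libraries. In tau fibrils 3, 16.3% of uniquely mapped reads fell outside genes, against 21.3% to 22.2% in the other 3.

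Vehicle 1 had the highest levels of its group for Gm12250 (0.583 CPM, with 0 in the others), Marco (5.83 CPM), Pbx4 (11.1 CPM) and Slamf8 (6.41 CPM). Vehicle 2 had the highest levels for Oas2 (0.203 CPM, with 0 in the others), Mfge8 (349 CPM) and Irf1 (38.4 CPM). In vehicle 4 Spp1 (1668 CPM), Mgll (143 CPM) and Rpl30 (114 CPM) were the highest of the group.

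Among the libraries with tau fibrils, tau fibrils 3 stood apart for Tgfb1 (64.3 CPM), Tfec (17.9 CPM) and Il6 (0.794 CPM, with 0 in the others), which were highest there, and for Mmp9 (24.6 CPM), which was lowest. Tau fibrils 4 was highest for H2-K1 (2844 CPM), Pfkfb4 (69.9 CPM) and Dck (103.6 CPM). The 16 of these genes that were called kept their call when the library in question was left out, although Slamf8 moved to a log2 fold change of 4.56 without vehicle 1 and Rpl30 to -0.69 without vehicle 4 (adjusted p = 1.31e-07 and 0.0415).

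The median level of the Alzheimer risk genes, as log2 over the vehicle mean, was 0.60 in tau fibrils 3 and 0.040 in vehicle 3, above the other 3 of each group. The median level of the cholesterol genes was -0.13 in vehicle 4, below the other vehicle libraries at 0.02 to 0.05. No explanation of these values was tested.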

How the results depend on the processing

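The number of genes called kept within 1.5 times 3108 in all 15 alternatives that refitted the test. It was 3107 with RLE normalization, 3311 with total-count scaling, 2961 with DESeq2, 3127 with limma-voom, 3048 without a filter, 2655 with at least 10 counts in every library (8636 genes tested) and 2873 after thinning to the smallest library, and leaving out 1 library gave 2517 (without tau fibrils 3) to 3038 (without vehicle 4). Total-count scaling kept 1057 of the 1506 increases and all 1602 decreases, added 652 decreases, and turned the sign of the median of the disease-associated microglia, unfolded protein response and ribosomal lists, whose medians were close to 0. The median of the uptake list moved from 0.32 to -0.01 when at least 10 counts were asked in every library, and the medians of the autophagy, heat shock and nuclear oxidative phosphorylation lists, all between -0.05 and 0, changed sign under several alternatives. Runs of neighbouring genes depended on the minimum length: with 4 genes there were 23 higher and 10 lower, against 12 and 2 with 5. With a window of 100 bases, response element letters occurred in 3.27% of promoters of genes called higher and in 0.584% of those not called, against 5.72% and 2.10% with 250 bases, since fewer bases were searched. Among the named genes 1957 of 2007 values kept direction and side of the threshold, and none changed direction. The 47 lost calls belonged to Apoe, Atg5, Hsf1, Ndufb6, Rpl30, Sesn1, Socs2, Sqstm1, Vsir and mt-Nd4, with adjusted p values of 0.0514 to 0.265, of which Ndufb6 was called in 3 of 15 alternatives. Lamp1 gained a call in 3. The cause was not tested. No paired analysis was possible because the titles number the libraries 1 to 4 and 9 to 12, the replicate numbers used here follow sample order only, and no label ties a tau fibril library to a vehicle library. Depth limited genes under about 10 counts, which include Il6, Il10 and the MHC class II chains.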
